A study of Mus musculus with 8 samples.

Results

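The genes described here make cholesterol and fatty acids, or sense and export sterols, and their RNA was followed in CD8+ T cells sorted from mouse tumours. The list holds 35 genes by name, and 34 of them were rows among the 20029 genes of the deposited table. Msmo1 was the exception, and the table holds it under Sc4mol, which RefSeq gives as an older symbol of the same gene. Its values are given below but enter no count. Of the 34 genes, 31 passed a filter on low values (at least 1 TPM in at least 4 libraries) and were tested. Me1, Scd1 and Fads2 did not.

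There were 8 libraries, 4 from Pglyrp1 knockout (KO) mice, numbered 1 to 4, and 4 from wild-type (WT) mice, numbered 6 to 9. The WT animals were C57BL/6J and the KO strain was B6.129S4-Pglyrp1tm1.1Lky/J, a germline allele that every cell of the host carries. In both groups MC38-OVA cells, from a colon tumour line of the mouse with ovalbumin as its model antigen, had been placed under the skin of the right flank. The tumour cells themselves do not carry the allele. The labels name no drug, Cre or transgene in the mice, and the sources used here give neither age nor sex. Each library came from 1000 living cells sorted as positive for CD45, TCRβ and CD8. Pglyrp1 encodes a secreted peptidoglycan-binding protein, and the comparison asks how RNA in these cells differs where it is missing. The series' design counts 4 mice per genotype, so errors are the spread between mice with 1 library each.

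As background, cholesterol is built from acetyl-CoA through mevalonate, farnesyl diphosphate, squalene and lanosterol. When membrane sterol is low, SREBP transcription factors leave the endoplasmic reticulum and switch on nearly every enzyme of this route and of fatty acid synthesis. When sterol is plentiful, oxysterols activate LXR receptors, which switch on sterol export. T cells that are activated and divide are known to raise SREBP activity and lower LXR activity, since each daughter cell needs new membrane.

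Promoter letters are shown as background, because most enzymes of sterol synthesis are known to share SREBP control. Whether that control had a part in the differences between libraries was not tested. In RefSeq's table for GRCm38.p6, 26 of the 34 genes had a promoter, taken from 250 bases before to 50 bases after the start, and a gene with several promoters was counted once. Fdps, Fdft1 and Sqle had no promoter there, so 12 of the 15 tested sterol synthesis enzymes could be searched. On either strand, the NF-Y box CCAAT was found for 12 of these 12 and for 43.9% of the 8018 tested genes with a promoter. NF-Y is a factor known to bind beside SREBP. The Sp1 box GGGCGG was found for 11 of 12 enzymes and for 68.6% of tested genes. The sterol regulatory element TCACNCCAC was found for 1 of 12 enzymes, Hmgcs1, and for 1.38% of tested genes. Over all 32841 promoters of the table the shares were 37.4% for CCAAT, 35.7% for GGGCGG and 1.24% for TCACNCCAC. The LXR motif DR4 was found for 0 of the 26 genes, for 0 of the 8018 tested genes and in 0.0152% of all promoters. Its absence therefore does not set the members apart from other genes, and Abcg1 had no promoter to search. Motifs were searched one at a time on both strands, and matches of different motifs may share bases. A match is a description of letters, not a site. The stretches printed are those of members at the start, middle and control points of the pathway that overlap no annotated exon. They run 5′ to 3′ on the gene's strand, with capitals for TCACNCCAC and for CCAAT, which reads ATTGG where it lies on the other strand.
Hmgcs1: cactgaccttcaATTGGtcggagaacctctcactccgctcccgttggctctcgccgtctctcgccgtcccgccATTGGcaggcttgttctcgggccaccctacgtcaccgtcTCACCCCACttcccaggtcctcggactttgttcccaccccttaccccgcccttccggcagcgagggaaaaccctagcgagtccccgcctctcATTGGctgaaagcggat
Mvd: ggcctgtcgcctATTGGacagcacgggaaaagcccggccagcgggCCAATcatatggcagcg
Lss: ggtgatgctctgATTGGccgagctcgcat
Insig1: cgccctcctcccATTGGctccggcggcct
Srebf2: cttcgcgcgccgATTGGctaatgcaagcc
The Hmgcs1 stretch lies at chr13:119690102-119690322 on the plus strand, with the sterol regulatory element starting 137 bases before the start. That of Mvd lies at chr8:122443433-122443494 (minus strand) and that of Lss at chr10:76531531-76531559 (plus). That of Insig1 lies at chr5:28071184-28071212 (plus) and that of Srebf2 at chr15:82147122-82147150 (plus). Idi1 and Acss2 also hold CCAAT in this window.

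Facts of the libraries bear on every value below. Values are the authors' TPM-normalized counts, rescaled here to 1000000 per library and called TPM, so a fall in other genes can raise these. In bulk samples, fewer cells of a type and less RNA per cell cannot be told apart. Pglyrp1 itself, the check of the labels, ranged from 123 to 209.6 TPM in WT and had the value 0 in each KO library. The 7 CD8 T cell markers in the table summed to 4999 to 5500 TPM in KO and 4918 to 6805 TPM in WT, so the sorted type was detected in every library. Of these 7, Cd8b1 had groups apart, at 1039 to 1329 TPM in KO and 1340 to 1728 in WT, and the rest overlapped. Of 14 macrophage and dendritic cell markers, 12 had their highest values in KO 3 and KO 4. Their sum was 2929 TPM in KO 3 and 5525 in KO 4, 151 to 210 in the other KO libraries and 112 to 406 in WT, and no marker was at 0 throughout. The 4 natural killer cell markers, led by Tyrobp, which myeloid cells share, summed to 101 to 1321 TPM in KO and 37.4 to 55.7 in WT. The 4 B cell markers summed to 6.05 to 20.8 TPM in KO and 7.20 to 49.6 in WT, and the 2 erythroid markers in the table to 1.79 to 1192 and 3.60 to 457. The 4 CD4 T cell markers summed to 18.0 to 80.2 TPM in KO and 9.35 to 29.5 in WT. The 6 fibroblast and carcinoma markers summed to 3.93 to 109 and 1.63 to 4.51. Among markers of other cell types, groups were apart for Cd4, Lyz2, Fcgr3, Klrb1c, Tyrobp and Epcam. All of these were higher in KO, as were 2.62% of all genes with groups apart. Cd4 was at 4.50 to 66.7 TPM in KO and 0.393 to 2.25 in WT. Tyrobp was at 83.2 and 84.9 TPM in KO 1 and KO 2, against 23.3 to 40.6 in WT.

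None of the 31 members passed the test between KO and WT, while 3 of the 10732 genes tested (0.028%) did. The test was limma on log2(TPM + 1) with Benjamini-Hochberg adjustment, and the members' adjusted p ranged from 0.327 to 0.995. At an unadjusted p under 0.05 there were 2 members higher in KO, Idi1 and Fdps (6.01% of all genes), and 1 lower, Acss2 (3.07% of all genes). The difference was positive for 22 of 31 members, against 55.2% of all genes, and negative for 9, against 44.8%. Its median was 0.17 on the log2 scale for the members and 0.04 for all genes tested. On other scalings the balance of signs moved: 17 of 31 members were positive with quantile normalization, 19 of 33 once genes of ribosomal proteins and the top 20 by level were removed, and 29 of 33 on deposited values that were not rescaled. Over all genes the positive share was then 41.5%, 40.9% and 76.2%, and the median moved to -0.07, -0.08 and 0.27. At an unadjusted p under 0.05 all genes divided into 645 higher and 329 lower, against 552 and 572, 531 and 630, and 1558 and 74 on those 3 scalings. The members higher at that p numbered 5 with quantile normalization, 3 with the ribosomal and top genes removed and 6 on values not rescaled. They numbered 6 without WT 7, 1 (Idi1) without KO 3, KO 4, WT 6 or WT 9 in turn, and 0 with the macrophage and dendritic markers as a covariate and when KO 3 and 4, WT 6 and 9, or all 4 of these were left out. The groups did not overlap for 1 member lower in KO, against 2.4% of all genes, and for 0 members higher in KO, against 2.62%. The member whose groups were apart was Acss2.

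**Figure D1:**
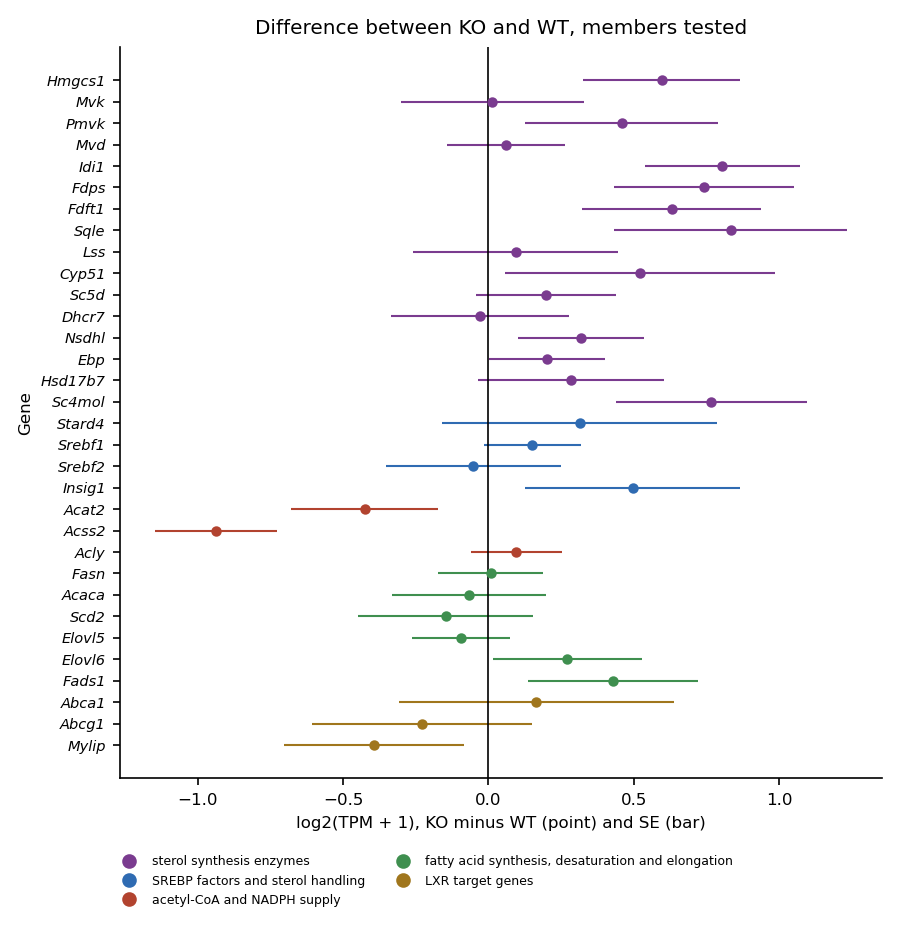
Difference between KO and WT on the log2(TPM + 1) scale (horizontal axis; points, with bars of 1 SE) for the 31 members tested and for Sc4mol, coloured by role. Sterol synthesis enzymes lie mostly right of 0 with wide bars, up to 0.83 for Sqle, and Acss2 lies farthest left, at -0.94.

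Among the enzymes from acetyl-CoA to farnesyl diphosphate, Idi1 and Fdps had the smallest p, with higher mean levels in KO. Idi1 (chromosome 13, 8885606 to 8892396), the isomerase that makes dimethylallyl diphosphate, was at 21.1, 21.2, 32.0 and 33.2 TPM in KO 1 to 4. In WT 6 to 9 it was at 15.04, 22.9, 12.8 and 10.2 TPM. The groups overlapped only because WT 7 lay above KO 1 and KO 2. The means were 26.9 ± 6.65 and 15.3 ± 5.48 TPM (SD, n = 4 each), a log2 difference of 0.80 (SE 0.27, limma unadjusted p = 0.0140, adjusted p = 0.472, exact permutation p = 0.0857). Fdps (chromosome 3, 89093588 to 89101967) makes farnesyl diphosphate, the branch point to sterols and prenylated proteins. It was at 63.8, 99.2, 157 and 157 TPM in KO and at 61.0, 78.7, 86.1 and 47.2 TPM in WT. KO 3 and KO 4 stood above every other library and KO 1 lay within the WT range. The log2 difference was 0.74 (SE 0.31, limma unadjusted p = 0.0387, adjusted p = 0.527, exact permutation p = 0.114). Leaving out KO 3 and 4 gave 0.50 for Idi1 and 0.26 for Fdps, and leaving out WT 6 and 9 gave 0.58 for Idi1 and 0.44 for Fdps. With both pairs left out, Idi1 was at 0.28 and Fdps at -0.05. Without KO 2, KO 3, KO 4, WT 6 or WT 9 in turn, limma's unadjusted p for Fdps lay between 0.0511 and 0.107. Hmgcs1, which condenses acetyl units to HMG-CoA, was at 51.8 ± 10.9 TPM in KO and 35.2 ± 14.4 in WT (SD, n = 4). The kinases and the decarboxylase between them differed less. Pmvk was at 41.8 ± 12.1 and 31.5 ± 13.0 TPM, Mvk at 7.44 ± 2.54 and 7.42 ± 3.04, and Mvd at 26.7 ± 6.78 and 25.1 ± 3.39.

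From squalene onward, Fdft1, Sqle, Cyp51 and Sc4mol had KO means above the WT means, while Lss and Dhcr7 were close to level. Sqle and Sc4mol are given in detail although the rule for named genes did not choose them. Sqle, the epoxidase that commits squalene to sterols, was at 14.2, 16.3, 35.9 and 34.5 TPM in KO 1 to 4 and at 6.91, 22.9, 13.5 and 11.4 TPM in WT 6 to 9. KO 1 and KO 2 lay among the WT values, and WT 7 exceeded both. Its log2 difference of 0.83 (SE 0.40, limma adjusted p = 0.570) was the highest of the members. Fdft1, squalene synthase, was at 25.0 ± 6.27 TPM in KO and 16.5 ± 7.46 in WT, and Cyp51, the lanosterol demethylase, at 22.1 ± 9.14 and 16.3 ± 10.5 (SD, n = 4). Lss, the cyclase that makes lanosterol, was at 18.7 ± 4.58 and 18.7 ± 9.40 TPM. Sc4mol, the methyl sterol oxidase (chromosome 8, 64718123 to 64733578), was at 24.6, 34.5, 65.2 and 54.7 TPM in KO and at 16.3, 33.7, 28.5 and 21.6 in WT. Its log2 difference was 0.77 (SE 0.33, limma unadjusted p = 0.0432, adjusted p = 0.533), and again KO 3 and KO 4 were highest. Ebp, the sterol isomerase, and Fdps had the highest mean levels of the 15 enzymes. TPM accounts for length by definition, but how the authors scaled the deposited score was not given. Ebp was at 63.4, 67.4, 67.6 and 79.5 TPM in KO against 46.3, 72.0, 80.6 and 48.4 in WT. Its groups overlapped through WT 7 and WT 8 (log2 difference 0.20, SE 0.20, limma adjusted p = 0.786). Nsdhl, a sterol dehydrogenase, had means of 17.6 and 14.04 TPM in KO and WT, Sc5d, the lathosterol desaturase, 35.7 and 32.0, and Hsd17b7, a ketosteroid reductase, 3.64 and 2.83. Dhcr7, which completes cholesterol, had means of 16.5 and 16.1 TPM and a log2 difference of -0.03, the one negative value among the 15 enzymes, with means and log values differing in sign. Lss differed the other way, with a log2 difference of 0.09 while its KO mean was not above its WT mean.

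Counted together, 14 of the 15 sterol synthesis enzymes had a positive difference, beside 55.2% of all genes, with a median of 0.32 on the log2 scale. None passed the test, and the enzymes were chosen with earlier results of these data known. Acat2, which starts the mevalonate route, was grouped with acetyl-CoA supply and lies outside this count, with a log2 difference of -0.425. Sc4mol lies outside it too, at 0.767. Summed, the 15 enzymes reached 370, 442, 597 and 622 TPM in KO 1 to 4 and 299, 510, 413 and 278 TPM in WT 6 to 9. WT 7 was above KO 1 and KO 2, and WT 6 and WT 9 were the lowest, so the groups overlapped. WT 7 was higher than KO 1 for 14 of the 15 enzymes, than KO 2 for 13 and than WT 9 for 15. KO 3 and KO 4 held the highest values of 6 of the 15, as of 14.2% of all genes. WT 6 and WT 9 were both below every other library for 8 of the 15, as for 17.3% of all genes. The highest value lay in KO 4 for 7 enzymes, as for 21.1% of all genes. The lowest lay in WT 9 for 7 (17.9% of all genes) and in WT 6 for 5 (21.1%).

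**Figure D2:**
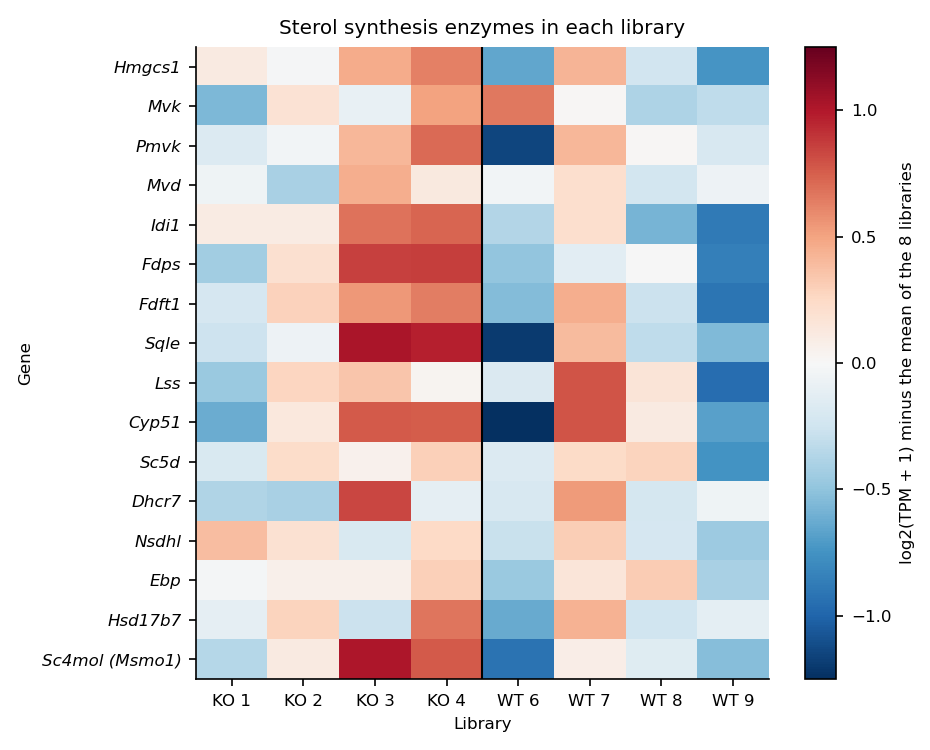
Level of each sterol synthesis enzyme (rows) in each library (columns), as log2(TPM + 1) minus the gene's mean over the 8 libraries, with red above and blue below that mean. KO 3, KO 4 and WT 7 are mostly red, WT 6 and WT 9 mostly blue, and the vertical line parts KO from WT.

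The count of enzymes with a positive difference depended on the libraries used and on the scaling. It was 11 to 15 with 1 library left out in turn. It was 12 of 15 (median log2 difference 0.24) with quantile normalization, 11 of 15 (0.21) with the ribosomal and top genes removed, and 15 of 15 (0.56) on values not rescaled. Leaving out KO 3 and 4 gave 11 of 15 (median log2 difference 0.13), where 47.5% of all genes were positive. Leaving out WT 6 and 9 gave 10 of 15 (0.05), where 45.9% of all genes were. With KO 1 and 2 against WT 7 and 8, 2 of 15 were positive (Idi1 and Nsdhl), the median was -0.20, and 37.5% of all genes were positive. KO 3 and 4 had the highest enzyme sums of the KO libraries, and WT 6 and 9 the lowest of the WT libraries. Leaving out either pair therefore had to lower the summed difference, so that fall is not a separate result. With the macrophage and dendritic markers as a covariate the count was 11 of 15 (0.13), where 48.0% of all genes were positive. None of these settings gave a member past the adjusted threshold.

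**Figure D3:**
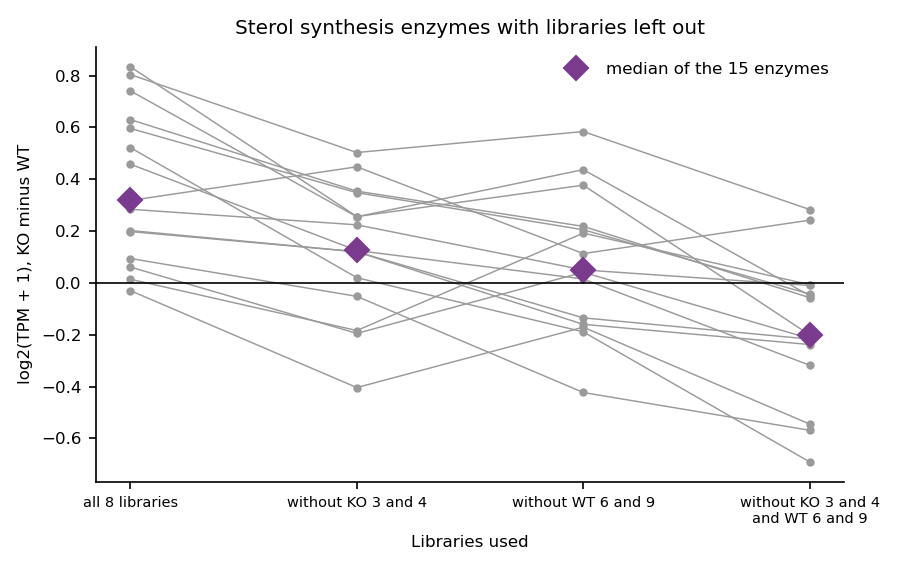
Difference between KO and WT on the log2(TPM + 1) scale for the 15 sterol synthesis enzymes (grey points, joined by gene) and their median (diamonds), with all libraries and with pairs of libraries left out. The median goes from 0.32 with all libraries to -0.20 with KO 1 and 2 against WT 7 and 8. The pairs left out had the highest KO and the lowest WT sums of these enzymes.

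Other gene lists differed between libraries in a similar or opposite order. Only the macrophage and dendritic markers entered a fit, as the covariate given above, and what part any list had in the result was not tested. The 7 markers of naive and memory T cells, among them Ccr7 and Tcf7, summed to 2220 and 1988 TPM in WT 6 and 9, the libraries lowest in sterol enzymes. They summed to 556 and 627 TPM in WT 7 and 8 and to 1314, 914, 837 and 365 TPM in KO 1 to 4. The 3 libraries with the highest sums of these markers, WT 6, WT 9 and KO 1, were those with the lowest sums of sterol enzymes. The 7 cycling markers, among them Mki67 and Top2a, summed to 267, 669, 549 and 350 TPM in WT 6 to 9 and to 405, 569, 509 and 603 TPM in KO 1 to 4. WT 6, WT 9 and KO 1 were lowest here as well, and WT 7 was highest. Macrophage and dendritic markers were highest in KO 3 and KO 4, as was the sum of the enzymes.

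**Figure D4:**
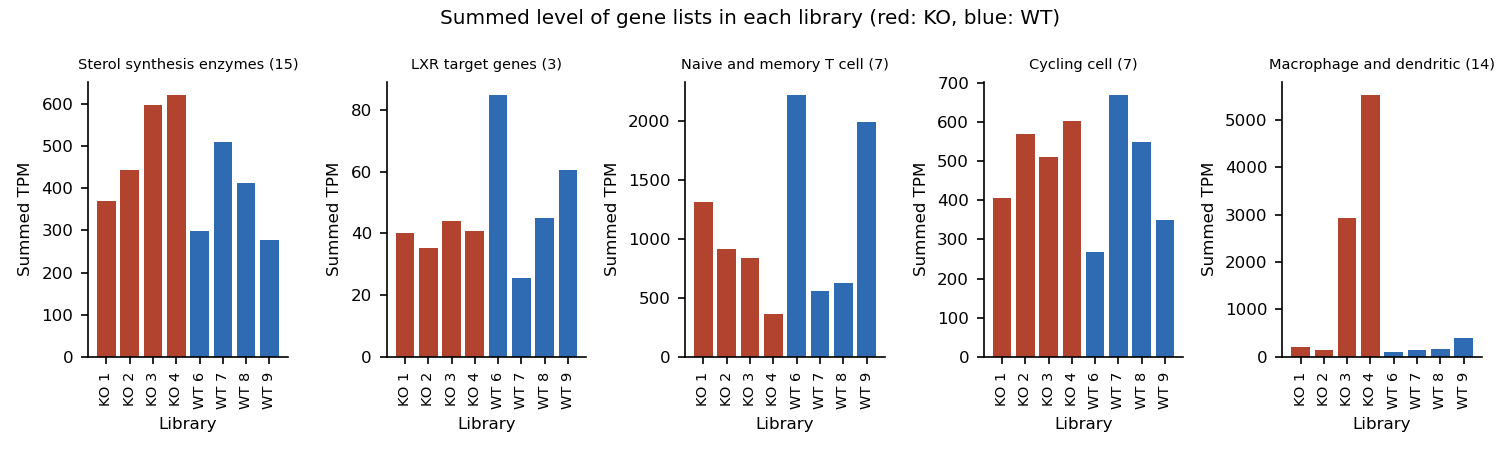
Summed TPM of 5 gene lists (1 panel each, number of genes in brackets) in each library, KO in red and WT in blue. The sterol enzymes are lowest in WT 6 and WT 9, where the naive and memory markers and the LXR target genes are highest.

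With all libraries, neither SREBP factor passed the test. Srebf1, which favours fatty acid genes, was at 49.2, 39.0, 45.8 and 48.4 TPM in KO 1 to 4 and 37.0, 50.4, 44.5 and 33.4 in WT 6 to 9, with overlapping groups (log2 difference 0.15, SE 0.17, limma adjusted p = 0.810). Srebf2, which favours sterol genes, was at 15.9, 20.6, 30.8 and 33.2 TPM in KO against 17.5, 40.0, 25.4 and 22.0 in WT (log2 difference -0.05, SE 0.30, limma adjusted p = 0.975). WT 7 was the highest library for both. The Srebf2 difference depended on the libraries: leaving out KO 3 and 4 gave -0.45, leaving out WT 6 and 9 gave -0.39, and the fit gave -0.48 with the macrophage and dendritic covariate. With KO 1 and 2 against WT 7 and 8 it was -0.78 (limma unadjusted p = 0.0338, adjusted p = 0.363). Insig1 holds SREBP in the endoplasmic reticulum and is itself an SREBP target. It was at 13.2, 21.2, 29.0 and 29.9 TPM in KO against 17.1, 25.2, 17.4 and 7.47 in WT, where KO 3 and KO 4 were again highest and WT 9 lowest (log2 difference 0.50, SE 0.37, limma adjusted p = 0.701). Stard4, a sterol carrier, followed the enzymes' order in its extremes, at 4.72 and 5.28 TPM in WT 9 and WT 6 and 19.4 TPM in KO 4.

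Acss2 had the smallest p of the members, and its 4 KO values lay below its 4 WT values. It makes acetyl-CoA from acetate in the cytosol and nucleus and is known as an SREBP target (chromosome 2, 155518043 to 155562743). It was at 26.7, 16.9, 17.1 and 14.7 TPM in KO 1 to 4 and at 45.1, 34.2, 35.4 and 31.1 TPM in WT 6 to 9. KO 1 came nearest to WT 9. The means were 18.8 ± 5.33 and 36.4 ± 6.06 TPM (SD, n = 4), a difference of -48.3% of the WT mean. The log2 difference was -0.94 (SE 0.21, limma unadjusted p = 0.00140, exact permutation p = 0.0286, the smallest possible), and it did not pass over all genes (limma adjusted p = 0.327). WT 6 was the highest library for Acss2 and among the lowest for the sterol enzymes. In all 22 alternative settings the difference was negative, between -1.11 and -0.66, with limma unadjusted p from 2.20e-04 to 0.0416 and adjusted p from 0.136 to 1.00. Leaving out KO 3 and 4 gave -0.74, leaving out WT 6 and 9 gave -0.89, and KO 1 and 2 against WT 7 and 8 gave -0.68.

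Acly and Acat2 had overlapping groups. Acly, which splits citrate to acetyl-CoA, was at 89.4, 87.4, 104 and 120.4 TPM in KO against 82.1, 90.4, 114 and 88.5 in WT. WT 6 was lowest and KO 4 highest (log2 difference 0.10, SE 0.16, limma adjusted p = 0.879), and its sign turned in several settings. Acat2, the cytosolic thiolase that starts the mevalonate route, was at 18.0, 14.8, 11.4 and 13.0 TPM in KO against 15.8, 24.3, 26.7 and 13.4 in WT. WT 7 and WT 8 were above every KO library and WT 6 and WT 9 within the KO range (log2 difference -0.43, SE 0.25, limma adjusted p = 0.637). Me1, the malic enzyme that supplies NADPH, was listed at 0 in all 8 libraries. Of the 3 tested members of this role, 2 had a negative difference.

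**Figure D5:**
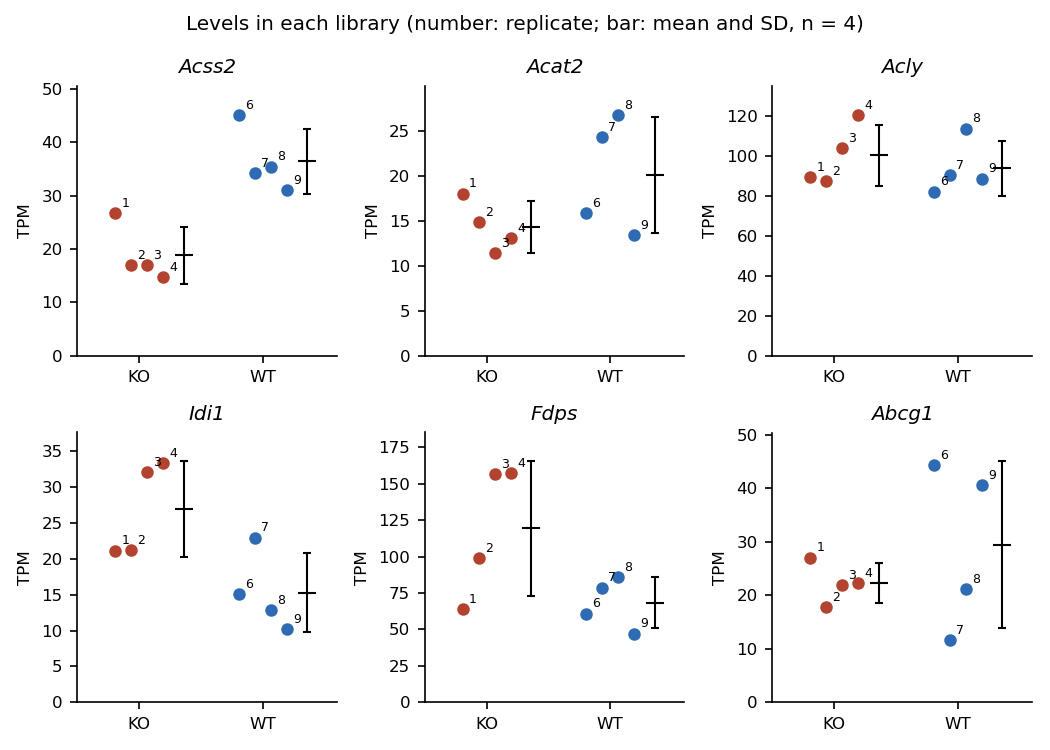
Levels of 6 members in each library in TPM (vertical axes from 0; red KO, blue WT; small numbers are the replicates), with the mean and SD of each group of 4 in black. Of these 6 genes the groups are apart for Acss2, and for Idi1 the WT 7 value lies above KO 1 and KO 2.

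Of the 6 fatty acid genes tested, 3 had a positive and 3 a negative difference, with a median of -0.03 on the log2 scale. Fasn, the fatty acid synthase, was at 13.5, 10.6, 13.2 and 14.7 TPM in KO against 13.4, 12.1, 11.1 and 14.9 in WT (log2 difference 0.01, SE 0.18, limma adjusted p = 0.995). Its highest value was in WT 9, the library where 7 of the 15 sterol enzymes were lowest, as were 17.9% of all genes. Acaca, which makes malonyl-CoA, was low, between 2.12 and 5.05 TPM in all libraries. Elovl5, the elongase of polyunsaturated fatty acids, had the highest level of these genes in TPM, at 103, 81.9, 88.8 and 74.1 TPM in KO against 106, 72.9, 108 and 86.1 in WT (log2 difference -0.10, SE 0.17, limma adjusted p = 0.893). Elovl6, the elongase of saturated chains, was at 7.97, 5.44, 5.68 and 7.996 TPM in KO against 6.50, 3.60, 4.86 and 7.08 in WT, and WT 7 was lowest here as for Elovl5 (log2 difference 0.27, SE 0.26, limma adjusted p = 0.772). Fads1, a desaturase of polyunsaturated fatty acids, was at 9.70, 6.65, 14.4 and 10.5 TPM in KO against 4.88, 8.55, 10.4 and 5.90 in WT, and the ranges overlapped (log2 difference 0.43, SE 0.29, limma adjusted p = 0.681). Scd2, a stearoyl-CoA desaturase, was at 8.08 to 21.9 TPM in KO and 11.2 to 14.9 in WT.

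The fatty acid genes left untested were at or near 0 in most libraries. Scd1, a further stearoyl-CoA desaturase, was listed at 0 in 4 libraries and reached 2.95 TPM in KO 4 and 1.97 in WT 9. Fads2, another desaturase of polyunsaturated fatty acids, was at 25.7 TPM in KO 3 and 5.47 in KO 4 while the remaining 6 libraries ranged from 0 to 0.900 TPM. KO 3 and KO 4 were also the libraries with the macrophage and dendritic marker sums of 2929 and 5525 TPM, and the part of those cells in the Fads2 level was not tested.

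Among WT libraries, the summed LXR target genes were highest in WT 6 and WT 9, where the sterol enzymes were lowest, and lowest in WT 7. Abcg1, a sterol exporter, was at 44.3, 11.7, 21.2 and 40.5 TPM in WT 6 to 9 and at 27.0, 17.8, 21.8 and 22.3 in KO 1 to 4. WT 6 and WT 9 were above all other libraries and WT 7 below them all, so the KO values lay inside the WT range (log2 difference -0.23, SE 0.38, limma adjusted p = 0.881). Without WT 6 and 9 the difference turned to 0.46. Mylip, a ubiquitin ligase, was at 38.6, 13.9, 23.6 and 16.9 TPM in WT against 11.8, 16.6, 21.2 and 16.4 in KO, with WT 6 highest (log2 difference -0.40, SE 0.31, limma adjusted p = 0.717). Abca1, the exporter that loads apolipoprotein particles, was near the filter, at 0 to 3.15 TPM in WT and 0.897 to 2.10 in KO. Its log2 difference of 0.17 and its TPM means, 1.32 in KO and 1.38 in WT, differed in sign. Summed, the 3 genes were at 84.9, 25.6, 45.1 and 60.6 TPM in WT 6 to 9 and at 40.2, 35.4, 44.0 and 40.8 TPM in KO 1 to 4. The KO values thus lay inside the WT range. Among KO libraries the opposite order was not seen. There KO 3 was highest and KO 2 lowest for this sum, while KO 4 was highest and KO 1 lowest for the sterol enzymes.

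Other genes of lipid metabolism were read from a list of 40, of which 39 were in the table under their own symbol and 36 were tested. Hacd3 was listed under its older symbol Ptplad1 and enters no count. Ptplad1 was at 52.5 ± 5.46 TPM in KO and 42.3 ± 3.07 in WT (SD, n = 4). Its log2 difference was 0.30 (SE 0.135, limma unadjusted p = 0.0505, adjusted p = 0.550). None of the 36 passed the adjusted threshold. A positive difference was found for 24 (55.2% of all genes) and a negative one for 12 (44.8%). At an unadjusted p under 0.05, 2 of the 36 were higher (6.01% of all genes) and 0 lower (3.07%), a share of higher genes near that of all genes. Acsl4, which activates arachidonic acid to its CoA ester, was at 18.4, 19.0, 18.2 and 19.4 TPM in KO 1 to 4 and 6.50, 13.0, 13.5 and 9.05 in WT 6 to 9. Its groups were apart and the KO values were close together (log2 difference 0.83, SE 0.23, limma unadjusted p = 0.00579, adjusted p = 0.395, exact permutation p = 0.0286). Groups were apart and higher in KO for 1 of the 36 genes, against 2.62% of all genes, and lower for 0, against 2.4%. The Acsl4 difference was positive in all 22 alternative settings, from 0.46 to 1.09, and leaving out WT 6 and 9 gave 0.47. Hsd17b12, the reductase of fatty acid elongation, was at 41.2, 53.8, 57.1 and 61.4 TPM in KO against 34.1, 48.1, 25.0 and 40.9 in WT, where WT 7 overlapped the KO values (log2 difference 0.54, SE 0.22, limma adjusted p = 0.525).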

How the data were processed

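Full-length cDNA made by a modified SMART-Seq2 method was sequenced in pairs of 38 bases, per the labels' protocols. The authors deposited a score, named as a TPM-normalized count, in whole numbers; library sums lay between 2223162 and 3342847. The submitters' processing notes name RSEM 1.3.3 and mm10, while the aligner, annotation and scaling step were not given in the sources used here. Read depth is unknown, so no counting intervals are given. Although the design had assumed TPM, its test was retained, on values rescaled to 1000000 in each library. A gene was tested if 4 libraries or more held 1 TPM or more (10732 genes); with libraries left out, as many libraries as the smaller group holds. The test was limma 3.58.1 in R 4.3.3 (group as the only term, mean trend) on log2(TPM + 1), a scale that understates changes of low genes, with Benjamini-Hochberg adjustment over all genes at 0.05. Single genes also had an exact permutation test, two-sided, over 70 assignments (smallest p 0.0286). The fit was tested on simulated data with noise drawn independently for each gene. It recovered 52.2% of differences of 1 log2 unit, and 5.1% of its calls were false. Real libraries share patterns across genes, which the simulation left out, so these rates may not hold here. The 22 alternatives varied pseudocount, filter, scaling and model, added a myeloid marker covariate, or left out libraries. Tables used Python 3.11.15, pandas 2.3.3 and numpy 2.4.6. Coordinates and promoters are RefSeq's for GRCm38.p6, and exons GENCODE's.

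The members, lists and libraries to leave out were chosen with earlier results of these data known. The rule for named genes gave every library's value for members with an adjusted or unadjusted p under 0.05, with groups apart, or among the 2 of smallest p or the 2 of highest mean level in their role (15 members). Other pathway genes were named at an unadjusted p under 0.05. A few genes of the lists are not reported here by name.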

Additional observations from a re-analysis of the deposited data

Results flagged for a closer look

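A value far from the other 3 of its group was looked for in 84 groups of 4 libraries, of which 2 were marked. Chance marks about 1 in 20 groups, or 4.20. Dhcr7 was at 28.4 TPM in KO 3 and at 11.5 to 14.3 TPM in the other KO libraries. Scd2 was at 21.9 TPM in KO 4 and at 8.08 to 10.4 TPM in the other KO libraries.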

How the results depend on the processing

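No paired analysis was possible because no replicate number occurs in both genotypes. In each of 22 alternative settings 0 members passed the adjusted threshold, and Acss2, Acat2 and Mylip stayed negative and Idi1 and Elovl6 positive. The number of all genes called, 3 with all libraries, was 5 when KO 3 and 4 were left out, 5 when WT 6 and 9 were, 10 when both pairs were, and 2 to 9 with 1 library left out. The median difference of the members was 0.43 on deposited values that were not rescaled, where that of all genes moved to 0.27. Without both pairs it was -0.21, with 6 of 30 members positive. For the sterol enzymes it was -0.20 with 2 of 15 positive, where the highest KO and lowest WT enzyme sums had been left out. With 1 library left out it was 0.07 to 0.22 for the members and 0.19 to 0.48 for the sterol enzymes. Fasn turned to -0.036 with median-ratio scaling, -0.061 with quantile normalization, -0.123 without ribosomal and abundant genes, -0.131 with the myeloid covariate and -0.093 without KO 3 and 4. Acly turned to -0.015 with quantile normalization, -0.039 without ribosomal and abundant genes, -0.079 with the covariate, -0.072 without KO 3 and 4, -0.028 without WT 6 and 9, and -0.195 with both pairs left out. Not rescaled, Srebf2 was 0.173 and Elovl5 0.134, and with the covariate Elovl5 was 0.055. Without WT 6 and 9, Ebp was -0.135, Srebf1 -0.058 and Abcg1 0.456. Without both pairs the values were Fdps -0.049, Ebp -0.217, Srebf1 -0.109, Insig1 -0.308, Elovl5 0.047, Fads1 -0.206, Abcg1 0.453 and Sc4mol -0.087. With 1 library left out, Fasn ranged from -0.055 to 0.096, Srebf2 from -0.217 to 0.166 and Abcg1 from -0.591 to 0.021. Settings with libraries left out also had fewer samples, and the cause of these turns was not tested.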
